A study of Homo sapiens with 12 samples.

Results

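Small nuclear RNAs (snRNAs) are the RNA cores of the splicing machinery, and 40 genes of the machinery that makes them were followed here on expression arrays of 2 liver cancer lines. The genes were taken from a list with 6 steps of snRNA making: recognition of the promoter, transcript elongation, 3′ end formation by the Integrator complex, cap binding and nuclear export, assembly of the Sm ring, and maturation in the nucleus. For each gene the row with its single symbol on the platform was used, and 39 of the 40 genes had such a row, out of 22411 named genes in the table. ICE1 and INTS11 were found under older symbols. POU2F1, the Oct-1 activator of snRNA promoters, had no row of its own and is not analysed here. SART3 had 2 probes, of which the brighter was used.

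The 4 groups were Hep3B cells given an siRNA, Hep3B cells given a negative control RNA, Huh7 cells given an siRNA and Huh7 cells given a negative control RNA, each with 3 arrays of total RNA taken 48 h after transfection. Hep3B and Huh7 are established lines from human liver cancer and carry no other treatment by the labels. The series title names a long non-coding RNA as the subject, the labels give neither the sequence nor the dose of the siRNA, and the level of that RNA is not analysed here. Values are log2 array signals after quantile normalization, so a difference of 1 is a factor of 2 in signal and levels of different genes are not set against each other. Errors of log2 changes are standard errors with 3 arrays a group, adjusted p-values are from limma over all 66158 rows tested, and "rose", "fell" and "called" mean an adjusted p under 0.05.

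Most snRNAs are short RNA polymerase II transcripts without a poly(A) tail. The SNAPc complex binds the proximal sequence element of their promoters, the little elongation complex helps the polymerase along, and the Integrator complex cuts the transcript near its 3′ end. The cap-binding complex with ARS2 and PHAX sends the precursor to the cytoplasm, where the SMN complex with its Gemin proteins puts on the Sm ring and TGS1 methylates the cap further. Back in the nucleus the particle passes through Cajal bodies, where coilin resides, and exonucleases such as TOE1 trim its tail.

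Array medians as deposited lay between 3.82 and 3.94, and replicate arrays had an r across rows between 0.991 and 0.994. A row was taken as within background where every array of a group lay at or below 5.49, the mean of the brightest of 23 background rows. On single arrays the brightest background row read from 4.96 to 7.02, so that 5.49 is not a ceiling for each array. The Hep3B control arrays of SNAPC1, SNAPC4 and TOE1 lay near this cut. Of the 39 measured genes, SNAPC2, ELL, INTS5, INTS9, GEMIN6 and GEMIN7 were within background on all 12 arrays, so that no fold is given for them. The 6 measured hepatocyte genes include ALB and AFP, and their mean level per array was 10.74 to 10.94 in Hep3B siRNA, 11.37 to 11.45 in Hep3B control, 10.56 to 10.75 in Huh7 siRNA and 11.24 to 11.27 in Huh7 control arrays. Of 6 endothelial markers 0 were above background, of 5 fibroblast markers 0 in Hep3B and 1 in Huh7, of 6 blood markers CD68 and LYZ in each group, with PTPRC, CD3E and HBB within background, and of 6 cholangiocyte markers 2 in Hep3B and 3 in Huh7. CD68 rose with siRNA in both lines (0.47 in Hep3B and 1.13 in Huh7) and LYZ was higher in Huh7 control than in Hep3B control arrays (3.60), and their part in the results was not tested. The hepatocyte level was lower in siRNA than in control arrays of both lines, and its part in the results below was not tested. For Huh7 control array 1, 1 label field says Hep3B and the others say Huh7, which was followed. By its signal the array went with Huh7. Its r with the other Huh7 control arrays was above 0.99, while arrays of different lines had an r of at most 0.961. Whether replicate arrays stem from separate cultures is not labelled, so that p-values measure only the spread between these arrays.

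In Hep3B cells genes of all 6 steps differed with the siRNA: 12 of the 39 rose and 3 fell. INTS6 of the Integrator had the highest rise (2.17-fold), followed in size by INTS2, INTS13, the elongation complex scaffold ICE1 and the promoter activator ZNF143. In Huh7 cells 4 genes rose and 4 fell, with SNAPC1 (1.90-fold higher) and INTS6 (1.61-fold higher) as the largest rises and INTS7 (1.58-fold lower) as the largest fall. In both lines 7 genes were called in the same direction, 7 of the 15 Hep3B calls and 7 of the 8 Huh7 calls. SNAPC1, SNAPC4, INTS6 and TOE1 rose, and SNAPC3, INTS7 and INTS14 fell. Of these, SNAPC1 and INTS6 alone kept both calls in all 23 alternative settings described below. The share of all rows called the same way in both lines was not counted. The 7 are therefore not read as a result about the snRNA machinery as a whole. Without Huh7 control array 1 the Huh7 count was 5, the calls of SNAPC3, SNAPC4 and NCBP1 being lost. As in any bulk sample, fewer cells carrying an RNA and less of it per cell cannot be told apart.

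These shares have to be read against all genes. The 15 calls in Hep3B are 38.5% of the measured genes, where 10.3% of all rows were called, and the 8 calls in Huh7 are 20.5%, where 8.1% of all rows were called. Many rows of the table are within background and could hardly be called. Among genes with a mean above background the calls were 15 of 32 (46.9%) in Hep3B against 39.1% of all 7894 such named genes, and 8 of 32 (25%) in Huh7 against 32.7%. Both shares of called genes were thus near those of other expressed genes and are no result about the snRNA machinery, so that the detail lies in which genes moved. By direction, 12 genes rose and 3 fell in Hep3B, where 5.48% of all rows rose and 4.85% fell, and 20.1% and 18.9% of the expressed named genes. In Huh7 4 rose and 4 fell, where 4.66% of all rows rose and 3.44% fell, and 15.8% and 16.9% of the expressed named genes. With arrays centred on their medians the split was 12 and 0 in Hep3B and 3 and 1 in Huh7. The median log2 change of the 39 genes was 0.13 in Hep3B, against -0.01 over all rows. In Huh7 it was -0.04, against -0.01 over all rows, and its sign turned to 0.01 in the values as deposited and to 0.04 with arrays centred on their medians. For the 32 genes above background the medians were 0.13 in Hep3B and -0.08 in Huh7, against -0.01 and -0.04 for such named genes.

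**Figure D1:**
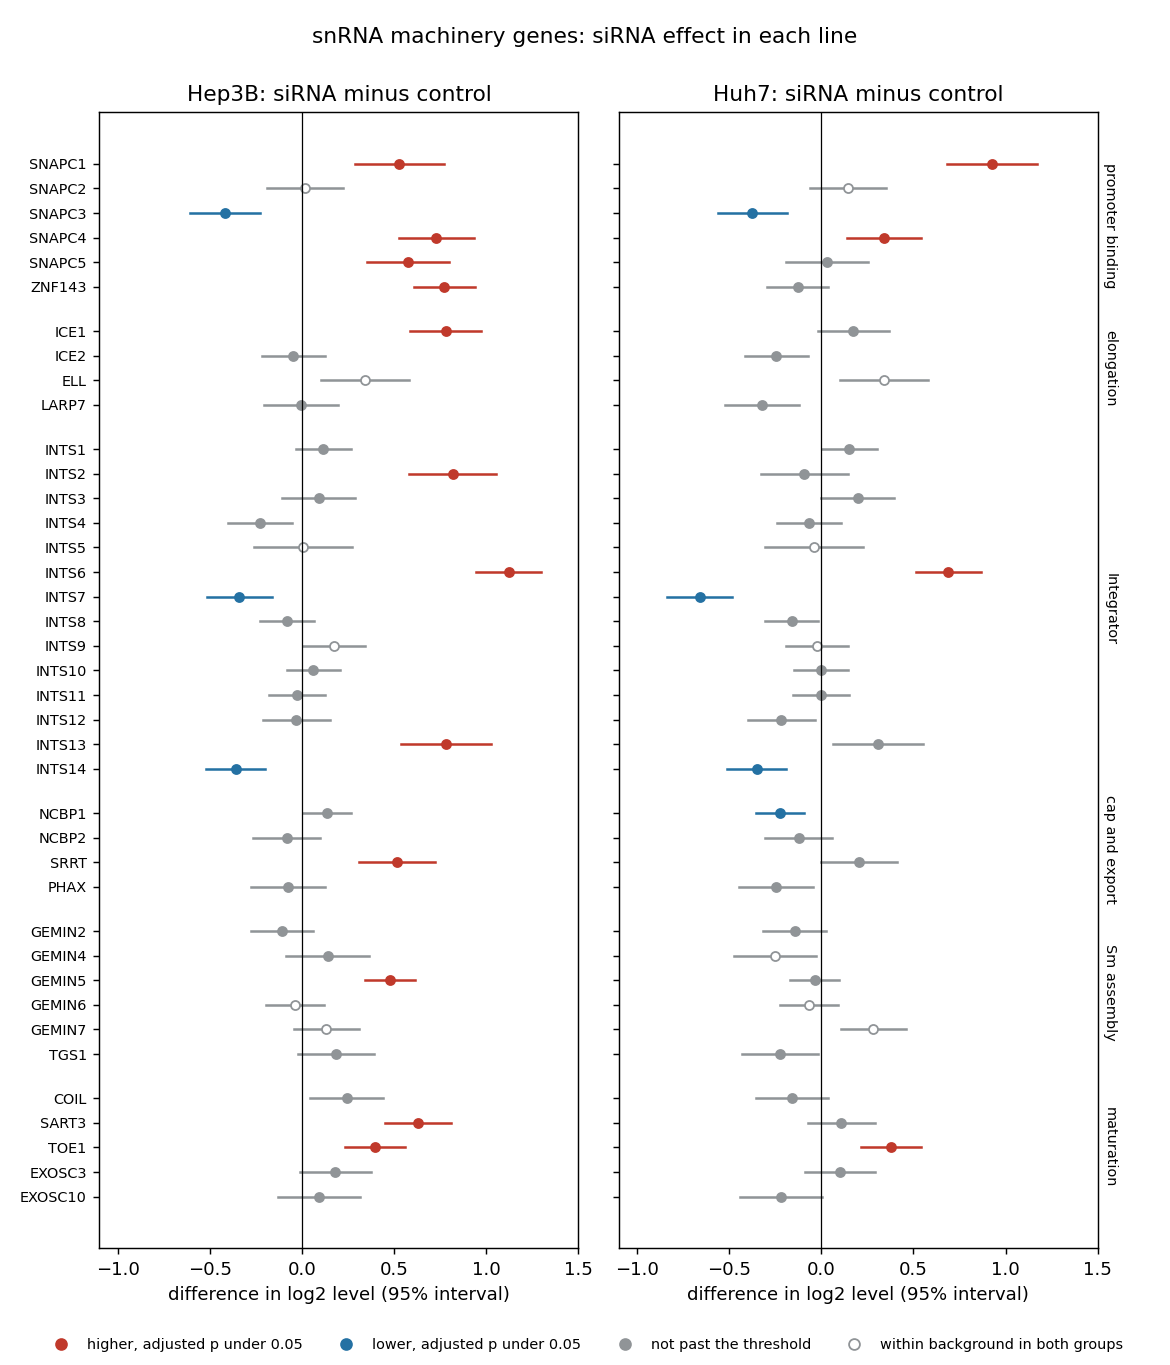
Log2 change (siRNA minus control, x axis) of each measured gene with its 95% interval, ordered by step, in Hep3B and in Huh7. Red marks genes that rose, blue genes that fell and grey genes not called, and hollow points are genes within background in both groups. INTS6 has the highest Hep3B value (1.12) and SNAPC1 the highest Huh7 value (0.93).

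The promoters of 6 genes called the same way in both lines are shown here so that the rising and falling ones can be set side by side. SNAPC4, the other gene called so, had no promoter sequence available and is not shown. They are the 250 bases before the annotated start, read 5′ to 3′ on the strand of the gene, from RefSeq on GRCh38.p14, for 31 of the 39 genes in all. Capitals mark an exact match, on either strand, to 1 of 3 motifs: the core ACTACAA (reverse TTGTAGT) of the ZNF143 site, the octamer ATGCAAAT (reverse ATTTGCAT) that POU2F1 binds, and the E-box CACGTG. The rising genes are SNAPC1 at chr14:61762170-61762419 on the plus strand, INTS6 at chr13:51453037-51453286 on the minus strand and TOE1 at chr1:45339920-45340169 on the plus strand.
SNAPC1: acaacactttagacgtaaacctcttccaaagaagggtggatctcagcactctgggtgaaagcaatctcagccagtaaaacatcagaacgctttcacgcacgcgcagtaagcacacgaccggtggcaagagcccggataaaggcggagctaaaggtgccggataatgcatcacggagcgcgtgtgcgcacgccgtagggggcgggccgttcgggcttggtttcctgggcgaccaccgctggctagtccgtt
INTS6: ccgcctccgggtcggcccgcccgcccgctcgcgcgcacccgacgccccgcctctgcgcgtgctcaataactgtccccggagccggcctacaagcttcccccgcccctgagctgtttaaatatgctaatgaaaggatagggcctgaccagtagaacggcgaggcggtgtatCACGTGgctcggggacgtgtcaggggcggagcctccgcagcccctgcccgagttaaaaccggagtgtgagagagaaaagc
TOE1: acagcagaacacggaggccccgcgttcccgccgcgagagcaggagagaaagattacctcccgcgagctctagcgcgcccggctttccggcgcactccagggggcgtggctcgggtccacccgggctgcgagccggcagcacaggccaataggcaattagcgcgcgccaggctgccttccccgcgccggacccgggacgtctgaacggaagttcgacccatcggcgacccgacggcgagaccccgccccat
The falling genes are SNAPC3 at chr9:15422626-15422875 on the plus strand, INTS7 at chr1:212035558-212035807 on the minus strand and INTS14 at chr15:65611132-65611381 on the minus strand.
SNAPC3: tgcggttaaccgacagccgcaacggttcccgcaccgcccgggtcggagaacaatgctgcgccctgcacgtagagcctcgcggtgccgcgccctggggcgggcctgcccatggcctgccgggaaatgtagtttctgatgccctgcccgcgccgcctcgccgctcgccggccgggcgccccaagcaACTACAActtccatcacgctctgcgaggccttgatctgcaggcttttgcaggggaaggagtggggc
INTS7: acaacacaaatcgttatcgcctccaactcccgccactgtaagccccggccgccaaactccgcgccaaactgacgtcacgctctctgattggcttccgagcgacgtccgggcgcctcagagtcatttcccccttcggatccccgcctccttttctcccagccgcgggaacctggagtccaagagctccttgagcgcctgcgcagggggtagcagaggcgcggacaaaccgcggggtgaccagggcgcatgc
INTS14: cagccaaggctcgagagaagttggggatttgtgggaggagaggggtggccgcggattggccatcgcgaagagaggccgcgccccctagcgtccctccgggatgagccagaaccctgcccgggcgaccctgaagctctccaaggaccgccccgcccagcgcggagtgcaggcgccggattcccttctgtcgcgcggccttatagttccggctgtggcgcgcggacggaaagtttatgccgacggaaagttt
The ZNF143 core was present in SNAPC3, which fell, with its first base 66 bases before the start, and in GEMIN6, which was within background. That is 2 of the 31 promoters, and 2.64% of the 27305 promoters of the table hold it. The E-box was present in INTS6 at 80 bases before the start, 1 of 31 against 6.49% of all promoters. The octamer was found in 0 of 31, against 1.66% of all. The 31 promoters were richer in G and C than the table as a whole, with a median of 64.4% against 58% and a median of 22 CpG against 11. A match is only a run of letters, and none of these counts says whether a factor binds.

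Of the 6 measured genes of the promoter step 4 rose and 1 fell in Hep3B, and 2 rose and 1 fell in Huh7. Over all expressed named genes 39.1% were called in Hep3B and 32.7% in Huh7. With 4 to 14 measured genes a step, the counts here and below are not read as results about a step. ZNF143, a zinc finger activator of snRNA promoters, gave 9.09, 9.03 and 9.06 in Hep3B siRNA arrays, against 8.29, 8.19 and 8.39 in Hep3B control arrays. All siRNA arrays were above all control arrays, and the level was 1.71-fold higher (log2 change 0.77 ± 0.08, adjusted p = 6.82e-05). In Huh7 the values were 8.30, 8.36 and 8.19 with siRNA, against 8.47, 8.39 and 8.37 in control. These values lay a little below the controls and were not called (-0.13 ± 0.08, adjusted p = 0.417).

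SNAPC1, the SNAP43 subunit of SNAPc, gave 6.16, 6.01 and 6.29 in Hep3B siRNA arrays, against 5.73, 5.72 and 5.43 in Hep3B control arrays. It gave 8.88, 8.92 and 8.93 in Huh7 siRNA arrays, against 8.03, 8.11 and 7.81 in Huh7 control arrays. The groups did not overlap in either line, and SNAPC1 rose 1.44-fold in Hep3B (0.53 ± 0.11, adjusted p = 0.00966) and 1.90-fold in Huh7 (0.93 ± 0.11, adjusted p = 0.000389). SNAPC4, the large subunit with the Myb repeats that contact DNA, gave 6.25, 6.45 and 6.29 in Hep3B siRNA arrays, against 5.63, 5.46 and 5.70 in Hep3B control arrays. It was 1.66-fold higher there (0.73 ± 0.09, adjusted p = 0.000389). In Huh7 SNAPC4 gave 5.70, 5.53 and 5.76 with siRNA, against 5.35, 5.24 and 5.38 in control, where every control array was within background. The rise was therefore at least 1.13-fold (adjusted p = 0.0441), and it was lost in 13 of 23 alternative settings.

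SNAPC3, the zinc-binding SNAP50 subunit, moved the other way. It gave 8.32, 8.33 and 8.22 in Hep3B siRNA arrays, against 8.67, 8.71 and 8.73 in Hep3B control arrays, and 8.18, 8.14 and 7.90 in Huh7 siRNA arrays, against 8.54, 8.42 and 8.38 in Huh7 control arrays. It was 1.34-fold lower in Hep3B (-0.42 ± 0.09, adjusted p = 0.00847) and 1.30-fold lower in Huh7 (-0.37 ± 0.09, adjusted p = 0.0198), with no overlap of groups. Median centring ended both calls and gave the highest adjusted p over the alternatives (0.00216 to 0.130 in Hep3B and 0.00502 to 0.139 in Huh7). The Huh7 call was also lost in the values as deposited (adjusted p = 0.0605), with only the Huh7 arrays (0.133) and without Huh7 control array 1, the array with the conflicting description (0.0789). SNAPC5, the small SNAP19 subunit, gave 7.17, 7.28 and 7.50 in Hep3B siRNA arrays, against 6.76, 6.74 and 6.73 in Hep3B control arrays, a 1.49-fold rise (0.58 ± 0.10, adjusted p = 0.00342). Its Huh7 values were 7.01, 7.08 and 6.88 with siRNA, against 6.79, 7.03 and 7.05 in control, overlapping groups with a change of 0.03 ± 0.10. The remaining subunit SNAPC2 averaged 3.60 in Hep3B siRNA against 3.58 in Hep3B control arrays, and 3.79 in Huh7 siRNA against 3.65 in Huh7 control arrays, all within background. SNAPC1 and SNAPC4 were thus higher and SNAPC3 lower in the same arrays, with directions that held in every alternative. The SNAPC3 call was lost in 1 of 23 alternatives in Hep3B and in 4 of 23 in Huh7, and the SNAPC4 call in 0 of 23 and 13 of 23.

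Of the 4 elongation genes 1 rose in Hep3B and none was called in Huh7, where 3 had an unadjusted p under 0.05. ICE1, the scaffold of the little elongation complex, gave 8.98, 9.01 and 8.87 in Hep3B siRNA arrays, against 8.09, 8.20 and 8.23 in Hep3B control arrays, a 1.72-fold rise (0.78 ± 0.09, adjusted p = 0.000182). The Huh7 arrays read 7.80, 7.65 and 7.82 with siRNA, against 7.68, 7.64 and 7.43 in control. The Huh7 groups overlapped (0.17 ± 0.09, adjusted p = 0.324). Its partner ICE2 had log2 differences of -0.05 in Hep3B and -0.24 in Huh7 (adjusted p = 0.0912), and neither passed. ELL, the elongation factor that the complex holds, was within background throughout, with 4.96, 5.23 and 4.96 in Hep3B siRNA arrays against 4.65, 4.55 and 4.92 in Hep3B control arrays, and 5.31, 5.24 and 5.37 in Huh7 siRNA arrays against 4.89, 4.94 and 5.07 in Huh7 control arrays. LARP7, the La-related protein that binds 7SK RNA, had values of 0.00 in Hep3B and -0.32 in Huh7 (adjusted p = 0.0559).

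The Integrator step was split. Of 14 genes 3 rose and 2 fell in Hep3B, and 1 rose and 2 fell in Huh7. INTS6, a subunit that ties the protein phosphatase PP2A to the complex, gave 8.28, 8.38 and 8.48 in Hep3B siRNA arrays, against 7.27, 7.22 and 7.28 in Hep3B control arrays. It gave 8.63, 8.64 and 8.49 in Huh7 siRNA arrays, against 7.95, 7.95 and 7.78 in Huh7 control arrays. The gap to the controls was several times the spread within groups in both lines, 2.17-fold in Hep3B (1.12 ± 0.08, adjusted p = 1.03e-05) and 1.61-fold in Huh7 (0.69 ± 0.08, adjusted p = 0.000351). INTS2, a core subunit, gave 7.55, 7.76 and 7.98 in Hep3B siRNA arrays, against 6.92, 6.88 and 7.05 in Hep3B control arrays, a 1.76-fold rise (0.82 ± 0.11, adjusted p = 0.000518). Huh7 cells gave 7.06, 7.22 and 7.05 with siRNA, against 7.19, 7.13 and 7.29 in control. Those groups overlapped (-0.09 ± 0.11, adjusted p = 0.733).

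INTS13, of the INTS10-INTS13-INTS14 module, gave 10.38, 10.46 and 10.65 in Hep3B siRNA arrays, against 9.71, 9.81 and 9.63 in Hep3B control arrays, a 1.72-fold rise (0.78 ± 0.11, adjusted p = 0.000903). In Huh7 the values were 10.82, 11.06 and 10.64 with siRNA, against 10.62, 10.52 and 10.46 in control. All siRNA arrays lay above the controls there but the change was not called (0.31 ± 0.11, adjusted p = 0.140). INTS14 of the same module went down, with 8.64, 8.60 and 8.73 in Hep3B siRNA arrays against 8.96, 9.11 and 8.98 in Hep3B control arrays, and 7.55, 7.45 and 7.40 in Huh7 siRNA arrays against 7.87, 7.83 and 7.76 in Huh7 control arrays. It was 1.28-fold lower in both lines (adjusted p = 0.00813 in Hep3B and 0.0120 in Huh7). Both calls were lost in the values as deposited and with median centring (adjusted p over the alternatives 0.00172 to 0.222 in Hep3B and 0.00249 to 0.147 in Huh7). The Huh7 call was also lost with only the Huh7 arrays (adjusted p = 0.0860). INTS10, the third gene of the module, had log2 differences of 0.06 in Hep3B and 0.00 in Huh7 and was not called.

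INTS7, a core subunit, gave 10.82, 11.02 and 10.95 in Hep3B siRNA arrays, against 11.26, 11.25 and 11.29 in Hep3B control arrays, and 9.63, 9.70 and 9.68 in Huh7 siRNA arrays, against 10.38, 10.19 and 10.43 in Huh7 control arrays. The groups did not overlap in either line. It was 1.27-fold lower in Hep3B (-0.34 ± 0.08, adjusted p = 0.0187) and 1.58-fold lower in Huh7 (-0.66 ± 0.08, adjusted p = 0.000437). The Hep3B call was lost without Hep3B siRNA array 1 or without any 1 of the 3 Hep3B control arrays (adjusted p from 0.0554 to 0.0695), as deposited and with median centring (0.00551 to 0.335 over all alternatives), and the Huh7 call held in all 23 alternatives. The catalytic side of the complex was not called: INTS11, the endonuclease, had log2 differences of -0.03 in Hep3B and 0.00 in Huh7, INTS4, a scaffold of the cleavage module, had -0.23 and -0.07, and INTS9 was within background. INTS1, INTS3, INTS8 and INTS12 had log2 differences between -0.22 and 0.20 over both lines. INTS5 was within background.

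**Figure D2:**
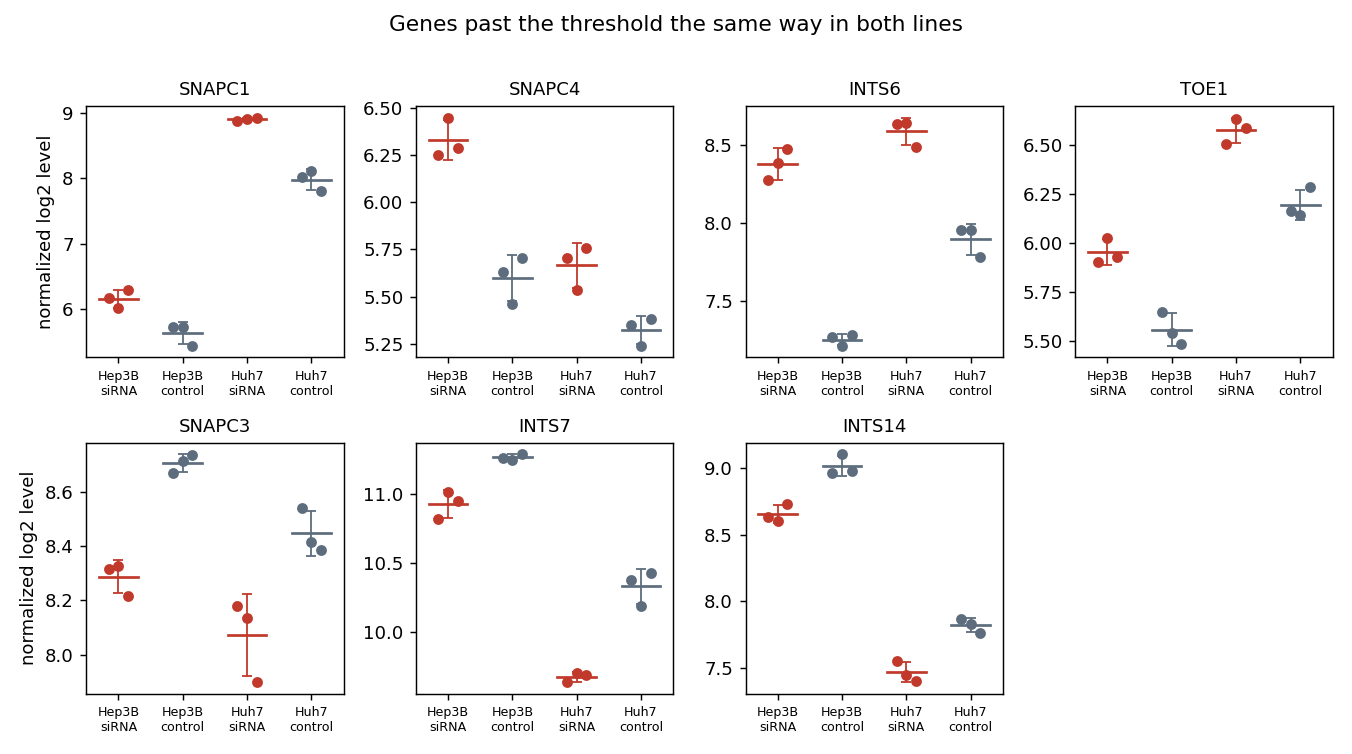
Normalized log2 level (y axis, a scale of its own in each panel that does not start at 0) on each array for the 7 genes called the same way in both lines, with siRNA in red left of control in grey. Bars are the mean and SD of 3 arrays. The siRNA arrays lie above the control arrays of the same line for SNAPC1, SNAPC4, INTS6 and TOE1 and below them for SNAPC3, INTS7 and INTS14.

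The cap and export step had 1 rise in Hep3B and 1 fall in Huh7 among 4 genes. SRRT, which encodes the cap-complex partner ARS2, gave 6.91, 7.03 and 7.05 in Hep3B siRNA arrays, against 6.53, 6.42 and 6.49 in Hep3B control arrays, a 1.43-fold rise (0.51 ± 0.09, adjusted p = 0.00427). Its Huh7 change of 0.20 was not called (adjusted p = 0.265). NCBP1, the larger cap-binding subunit, gave 9.34, 9.36 and 9.31 in Huh7 siRNA arrays, against 9.58, 9.58 and 9.52 in Huh7 control arrays. The fall was small (-0.22 ± 0.06, adjusted p = 0.0375) and was lost in 16 of 23 alternative settings. The other cap-binding subunit NCBP2 had -0.08 in Hep3B and -0.12 in Huh7, and the export adaptor PHAX had -0.08 and -0.24, none called.

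In the Sm assembly step GEMIN5 rose in Hep3B, and no other of its 6 genes was called in either line. GEMIN5, the subunit of the SMN complex that recognises the snRNA, gave 7.83, 7.95 and 7.91 in Hep3B siRNA arrays, against 7.43, 7.39 and 7.43 in Hep3B control arrays. The groups were well apart, at 1.39-fold (0.48 ± 0.06, adjusted p = 0.000433). Its Huh7 values were 8.52, 8.56 and 8.57 with siRNA, against 8.59, 8.62 and 8.55 in control, overlapping (-0.04 ± 0.06, adjusted p = 0.830). GEMIN7, within background, gave 4.59, 4.61 and 4.58 in Huh7 siRNA arrays, against 4.25, 4.22 and 4.46 in Huh7 control arrays (adjusted p = 0.0562). GEMIN2, which holds the Sm ring, had log2 differences of -0.11 and -0.15, and TGS1, the cap hypermethylase, had 0.18 and -0.22 in Hep3B and Huh7. GEMIN4 and GEMIN6 were at or within background.

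Of the 5 maturation genes 2 rose in Hep3B and 1 of these also in Huh7. TOE1, the exonuclease that trims snRNA tails, gave 5.91, 6.03 and 5.93 in Hep3B siRNA arrays, against 5.65, 5.54 and 5.49 in Hep3B control arrays, and 6.50, 6.63 and 6.59 in Huh7 siRNA arrays, against 6.16, 6.14 and 6.28 in Huh7 control arrays. The rise was almost the same in both lines, 1.31-fold in Hep3B (0.39 ± 0.07, adjusted p = 0.00502) and 1.30-fold in Huh7 (0.38 ± 0.07, adjusted p = 0.00829), where the call was lost with only the Huh7 arrays (adjusted p over the alternatives 0.00145 to 0.0650). SART3, which recycles U4 and U6, gave 8.94, 9.05 and 9.03 in Hep3B siRNA arrays, against 8.38, 8.36 and 8.39 in Hep3B control arrays, a 1.55-fold rise (0.63 ± 0.08, adjusted p = 0.000479). The Huh7 arrays read 8.84, 8.77 and 9.01 with siRNA, against 8.80, 8.64 and 8.84 in control (0.11 ± 0.08, adjusted p = 0.550). The second SART3 probe, within background in all arrays, was called in both lines (adjusted p = 0.000378 in Hep3B and 0.0127 in Huh7), so the probes disagree in Huh7. COIL, which encodes coilin, had 0.24 in Hep3B and -0.16 in Huh7, and the exosome genes EXOSC3 and EXOSC10 had log2 differences between -0.22 and 0.18, none called.

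Of the 17 uncalled genes above background in Hep3B, 17 had a 95% interval of the log2 change within ±0.5, and in Huh7 22 of 24 did. The groups did not overlap for 22 genes in Hep3B (17 above, 5 below), against 27% of all rows. In Huh7 they did not overlap for 22 genes (9 above, 13 below), against 22.9% of all rows. Many of all rows are within background, and the share among expressed named genes was not counted. These counts are therefore not read as a result about the snRNA machinery.

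The difference between the lines was tested as the Huh7 change minus the Hep3B change. Of the 39 genes 5 were called, all lower in Huh7, which is 12.8%, where 1.94% of all rows were called (1.06% higher and 0.875% lower in Huh7). Among genes above background it was 5 of 32 (15.6%), against 7.03% of such named genes (3.75% higher and 3.28% lower). They were 1 gene from each step except cap and export: ZNF143 (-0.90 ± 0.11, adjusted p = 0.00239), ICE1 (-0.61 ± 0.12, adjusted p = 0.0340), INTS2 (-0.91 ± 0.15, adjusted p = 0.0127), GEMIN5 (-0.51 ± 0.09, adjusted p = 0.0132) and SART3 (-0.52 ± 0.12, adjusted p = 0.0487). Each rose in Hep3B, while its Huh7 change lay between -0.13 and 0.17 and was not called. For SART3 this holds for the brighter probe only. Its second probe, within background, was called in Huh7 (0.43, adjusted p = 0.0127). With the probes averaged the SART3 difference was lost (adjusted p = 0.0552). The median difference of the 39 genes was -0.19 and 30 of the 39 values were negative, against a median of 0.00 over all rows. For the 32 genes above background it was -0.25, against -0.03 for such named genes. The other 3 genes called in Hep3B and not in Huh7 did not pass in the difference itself: SNAPC5 (-0.54, adjusted p = 0.0939), INTS13 (-0.47, adjusted p = 0.205) and SRRT (-0.31, adjusted p = 0.357). NCBP1, called in Huh7 alone, had a difference of -0.36 (adjusted p = 0.0552). SNAPC1, with the larger rise in Huh7, had a difference of 0.40 that was not called (adjusted p = 0.299).

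The ZNF143 and INTS2 differences were called in all 22 alternative settings. The GEMIN5 difference was lost with median centring alone (adjusted p over the alternatives 0.00218 to 0.0822). The ICE1 and SART3 calls were less firm, and were lost in 13 and 14 of 22 settings. ZNF143, INTS2 and GEMIN5 alone were called when any 1 Hep3B array, Huh7 siRNA array 1 or 2, or Huh7 control array 1 was left out.

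**Figure D3:**
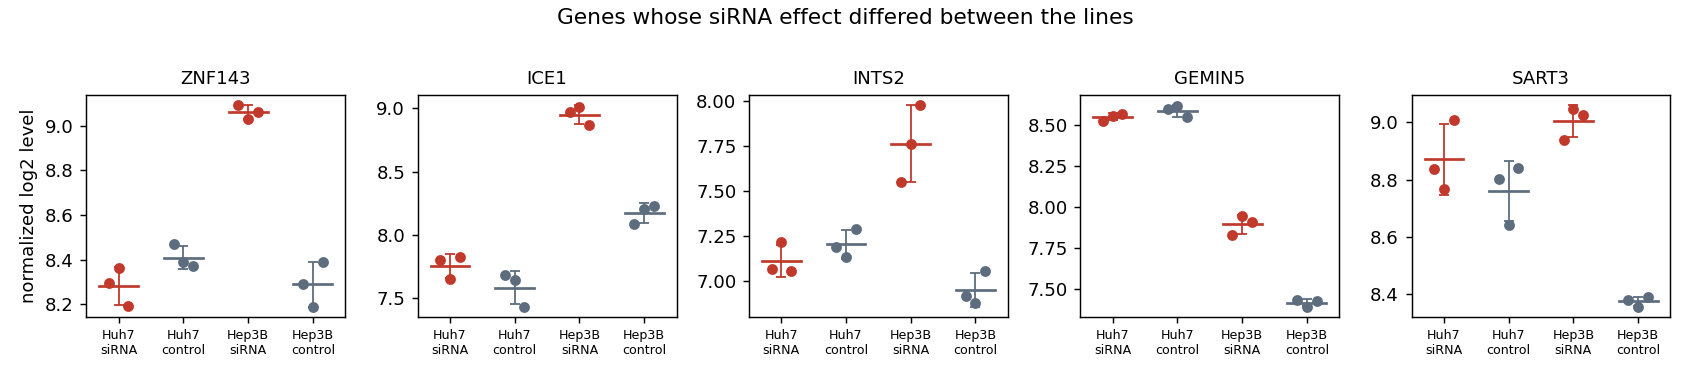
Normalized log2 level (y axis, a scale of its own in each panel that does not start at 0) on each array for the 5 genes called in the difference between the lines, with siRNA in red left of control in grey. Bars are the mean and SD of 3 arrays. In Hep3B the siRNA arrays stand above the control arrays for all 5 genes, while in Huh7 the groups overlap for ICE1, INTS2, GEMIN5 and SART3 and the siRNA arrays lie just below the controls for ZNF143.

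The lines themselves also differed without the siRNA. Between control arrays 21 of the 39 genes were called, 11 higher and 10 lower in Huh7, which is 53.8%, where 20.9% of all rows were called (11% higher and 9.88% lower). Above background it was 59.4%, against 64.8% of such named genes (35.9% higher and 29% lower), so this share is not particular to the snRNA machinery. SNAPC1 had the largest gap, 5.11-fold higher in Huh7 control (mean 7.98) than in Hep3B control arrays (5.63). EXOSC10, the nuclear exosome nuclease, was higher by 1.25 on the log2 scale, GEMIN5 by 1.17, TGS1 by 1.01, EXOSC3 by 0.92, INTS13 by 0.81 and INTS6 and TOE1 by 0.64. Lower in Huh7 control were COIL (-1.32), INTS14 (-1.20), INTS7 (-0.94), INTS3 (-0.93), NCBP2 (-0.77), LARP7 (-0.72), ICE1 (-0.59), ICE2 (-0.50) and INTS12 (-0.40). SART3 and INTS8 were higher in Huh7 control by 0.39 and 0.26, and the remaining calls, INTS9 and GEMIN7, were within background in both lines. Of the genes called with siRNA in both lines, SNAPC4 (-0.27, adjusted p = 0.0570) and SNAPC3 (-0.26, adjusted p = 0.0542) were not called between the control arrays. These comparisons share the control arrays with the siRNA comparisons, so the values are given side by side only.

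**Figure D4:**
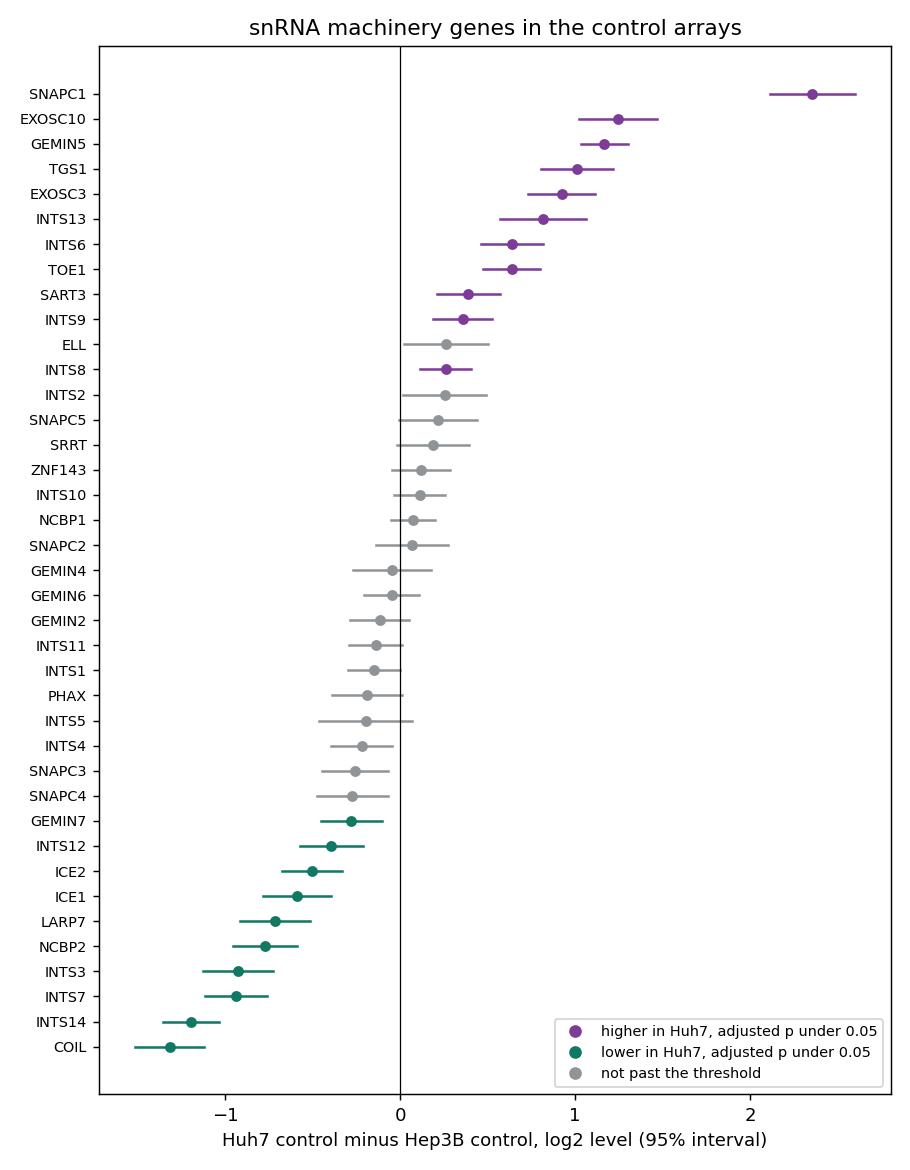
Log2 difference (Huh7 control minus Hep3B control, x axis) of each measured gene with its 95% interval, sorted by size, with purple for higher and green for lower in Huh7 by the adjusted p and grey for not called. SNAPC1 is the highest (2.35) and COIL the lowest (-1.32).

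Beyond the 39 genes, a list of 87 further genes of the same 6 steps, written with earlier results of these data known, was looked up and 79 were measured. In Hep3B 18 rose and 2 fell (25.3%), where 10.3% of all rows and 39.1% of the expressed named genes were called. In Huh7 8 rose and 7 fell (19%), where 8.1% and 32.7% were called, so neither share is a result about the list. At the promoter step BDP1, a subunit of the TFIIIB factor of RNA polymerase III, rose in both lines (1.08 in Hep3B and 0.79 in Huh7 on the log2 scale), and the general factors GTF2A1 and GTF2F1 rose by 0.38 and 0.33 in Hep3B. At elongation 6 of 12 rose in Hep3B (50%), where 5.48% of all rows and 20.1% of the expressed named genes rose. Among the 6, CCNT1 of P-TEFb rose by 0.76 and ZC3H8 and ELL2 by 0.66 and 0.57. The last 2 were also the only genes of the list called in the difference (ZC3H8 -0.62, adjusted p = 0.0271, and ELL2 -0.60, adjusted p = 0.0234). Of the Integrator-linked genes NABP1, which encodes a single-strand DNA-binding partner of INTS3, rose by 0.72 in Hep3B and 1.51 in Huh7, and CDK7 and CPSF2 rose by 0.60 and 0.40 in Hep3B.

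The import receptor KPNB1 rose by 0.94 in Hep3B and 0.63 in Huh7, and ZC3H18, which links the cap complex to decay factors, by 0.32 in Hep3B. In the Sm ring and assembly list 3 of 13 were called in Huh7 (23.1%), where 32.7% of the expressed named genes were called and 16.9% fell. The count is therefore no result about the list. In Huh7 SNRPE fell by 0.54, SNRPF fell by 0.41 and the chaperone subunit CLNS1A fell by 0.34. The other 10 were not called there, with log2 changes from -0.38 (SNRPB) to 0.31 (STRAP). None of the 13 was called in Hep3B, where 5 had an unadjusted p under 0.05. In the maturation list the poly(A) polymerase TENT4B rose by 0.53 in Hep3B and 0.76 in Huh7, the exosome gene EXOSC5 rose by 0.66 in Hep3B, and LSM4, of the ring that binds U6, fell by 0.40 in Hep3B and by 0.63 in Huh7. No test of the lists as a whole was made.

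The products of the pathway were read from the same arrays. Of 63 rows of RNA polymerase II snRNAs, with U3 and U13 RNA and copies 26 rose and 1 fell in Hep3B, and 17 rose in Huh7, all 17 also among the Hep3B rises, where 5.48% of all rows rose in Hep3B and 4.66% in Huh7. Among 77 rows named as U6 RNA, its numbered copies or other RNA polymerase III products, 21 rose in Hep3B and 43 in Huh7, and none fell. Whether each copy has a working promoter was not tested. Without Huh7 control array 1 the Huh7 counts were 16 up and 1 down for polymerase II rows and 30 up for polymerase III rows. Of the polymerase II rows 32 in Hep3B and 34 in Huh7 were within background in both groups. For the polymerase III rows these counts were 27 and 24. Copies of nearly the same sequence can share signal, so that a row need not stand for 1 gene. Log2 changes of the polymerase II rows ran from -0.59 to 5.05 in Hep3B and from -0.98 to 4.21 in Huh7. Those of the polymerase III rows ran from -0.41 to 1.17 and from -0.33 to 2.19. In the difference 4 polymerase II rows were called lower in Huh7 (6.35%) and 2 polymerase III rows higher (2.6%), against 1.94% of all rows. RNU4ATAC, given next, did not have the largest change in either line. RNU4ATAC, of the minor spliceosome, gave 13.74, 13.97 and 13.93 in Hep3B siRNA arrays, against 10.56, 10.43 and 10.84 in Hep3B control arrays (3.27 ± 0.42, adjusted p = 0.000464). Huh7 cells gave 12.50, 11.62 and 11.92 with siRNA, against 8.73, 10.28 and 10.81 in control (2.07 ± 0.42, adjusted p = 0.0107). Control array 1 stood apart there, and without it the change was 1.47 (adjusted p = 0.00598). RNU5D-1, a U5 copy, rose by 2.82 ± 0.21 in Hep3B (adjusted p = 1.27e-05), while its Huh7 control arrays were within background. Whether such rows reflect mature or unprocessed RNA was not tested.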

How the data were processed

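Total RNA of 12 samples was measured on 1 array each. The deposited table holds log2 values, as their range shows, and the submitters' processing notes name Agilent Feature Extraction 10.7.1.1, while the labels also give an Affymetrix labelling protocol and a Cy3 label. How probes were summarised is not given in the sources used here. Of 70523 rows, 67528 transcript cluster rows were kept. Symbols came from the platform table (23781 probes with 1 symbol, 1543 with several, 306 renamed from older symbols), with the brightest probe kept per symbol, which left 66158 rows. No filter on dim rows was used.

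Because array medians differed by 0.124, above a limit of 0.1, arrays were quantile normalized. The 12 arrays entered 1 limma model with a mean for each group (eBayes with a trend, 8 residual degrees of freedom), with two-sided p-values adjusted by Benjamini-Hochberg over all rows and a threshold of 0.05. The procedure was also run on simulated data with independent noise. That run cannot show how it handles effects shared by an array. R 4.3.3, limma 3.58.1, statmod 1.5.0, Python 3.11.15 and matplotlib 3.10.9 were used. Per-array values are given for up to 3 genes per step and line (5 for Integrator) with the largest called change, otherwise the 1 with the largest change, and for every gene called in the difference. From each further list up to 3 called genes with the largest change are named. The genes, lists and rules were chosen with earlier results of these data known. Other settings tried were a replicate block, array weights, no trend, leaving out 1 array at a time, fitting a comparison on its own arrays, averaging probes, keeping rows with 1 symbol or brighter rows, cyclic loess, median centring and no further normalization. The number of arrays limits the precision.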

Additional observations from a re-analysis of the deposited data

Results flagged for a closer look

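For 5 genes the siRNA change differed between the lines by a test of the difference itself (limma, Huh7 change minus Hep3B change, log2 scale). The differences were -0.91 for INTS2, -0.90 for ZNF143, -0.61 for ICE1, -0.52 for SART3 and -0.51 for GEMIN5. In each the 3 Hep3B siRNA arrays lay above the 3 Hep3B control arrays, and the Huh7 change was not called. For SART3 this is the brighter probe, and the second probe, within background, was called in Huh7. What the 5 genes share beyond this was not tested.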

How the results depend on the processing

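No called gene changed direction under any of the alternatives run. Of 28 calls in the siRNA comparisons and their difference, 17 were kept under every alternative, namely all 12 Hep3B rises, the rises of SNAPC1 and INTS6 and the fall of INTS7 in Huh7, and the ZNF143 and INTS2 differences; of 21 calls between control arrays 18 were. The 8 calls in Huh7 became 4 with median centring and 3 with only the arrays of the 2 groups, where the spread rests on 6 arrays. The 5 differences became 3 in the values as deposited, 2 with median centring, and 8 with rows above the median, with rows above the brightest background row or with only rows of 1 symbol, which adjust over fewer rows. Leaving out 1 array gave 14 to 16 calls in Hep3B, 5 to 8 in Huh7 (5 without Huh7 control array 1), 3 to 5 in the difference and 20 to 22 between controls. With a replicate block the counts were 15 in Hep3B, 6 in Huh7, 3 in the difference and 21 between controls; same-numbered arrays did not deviate together (r from -0.10 to 0.07), so the numbers were not used as pairs. Scaling moved the split of calls over all rows: rises were 53% in Hep3B, 59.3% as deposited and 65.9% with median centring, and 57.5%, 65% and 70.1% in Huh7. Among the genes the split was 12 up and 3 down in Hep3B, 12 and 1 as deposited and 12 and 0 with centring, and 4 and 4, 5 and 1, and 3 and 1 in Huh7. Over all rows, Huh7 calls numbered 5361, and 2720 with only its own arrays, and differences 1283, with 721 under centring, 1960 among rows above the median and 2328 above the brightest background row. Calls between controls were 13798, and 8627 with only rows of 1 symbol. The cause of these shifts was not tested, also where fewer rows or arrays entered the fit. Leaving out Huh7 control array 1 was also tried on the product rows and further pathway genes, a choice made after seeing the data. Signal over background limits 8 genes, which were within it in 1 or more groups. The Hep3B control levels of SNAPC1, SNAPC4 and TOE1 were near it.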
